A study of Mus musculus with 2 samples.

Results

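Pericytes and smooth muscle cells, the contractile mural cells of vessel walls and the muscle of hair-bearing skin, were examined in dorsal skin of male C3H/HeN mice treated with testosterone propionate (TP) or with vehicle (Con). A barcode counted as a member when it held 200 to 8000 genes, no more than 10% of its unique molecular identifiers (UMIs, each 1 counted transcript) came from mitochondrial genes, at least 2 of the 6 genes Rgs5, Notch3, Abcc9, Kcnj8, Des and Cnn1 had a UMI, at least 1 of Acta2, Myh11 and Rgs5 had a UMI, and the endothelial genes Cdh5 and Pecam1 had none. Members were thus chosen by their own measured UMIs of these 10 genes, whose levels are a description and not a finding. By this rule 179 of 62289 barcodes within the limits were members, 54 from Con and 125 from TP. Mice were shaved and received TP subcutaneously at 0.5 mg per day, or vehicle, from 7 weeks of age, and skin was taken at 9 weeks. The dorsal skin of 15 mice was pooled into 1 single-cell library per group. Variation between mice therefore cannot be seen, and no difference between Con and TP could be tested. The skin was digested with collagenase D, freed of red cells and passed over Percoll, and the antibody-treated group of the study was not analysed here. Every interval given is a 95% interval for counting error in these libraries, exact Poisson for levels, exact binomial (Clopper-Pearson) for shares and exact conditional for ratios.

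The Con library held 45709 barcodes with a median of 2162 UMIs within the limits, and the TP library 25931 barcodes with a median of 5166. The members had a median of 3577 UMIs in Con and 5958 in TP. No member barcode was shared between the libraries, although 303 barcode sequences occurred in both. Levels are counts per 1000000 UMIs (CPM), summed over the barcodes of a set. Inner root sheath barcodes, the keratinizing cells that surround the hair shaft, served as a type that should lack muscle genes. They were 4491 barcodes in Con and 876 in TP with at least 5 UMIs each of Krt71 and Krt25.

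Vascular smooth muscle cells wrap arteries and veins and set vessel width by contraction, whereas pericytes sit on capillaries within the basement membrane they share with the endothelium. Contraction runs on smooth muscle actin and myosin, with calcium entering through voltage-gated channels and being released from internal stores. Endothelial PDGF-B recruits these cells through the receptor Pdgfrb, and endothelial Jagged ligands keep them contractile through Notch3. In skin another kind of smooth muscle, the arrector pili, raises the hair, and the dermal sheath around the follicle also carries smooth muscle actin. Many of the contractile genes are switched on by serum response factor (Srf), which binds a short A/T-rich element known as the CArG box.

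The reference windows upstream of the contractile genes are shown first, because contraction is the shared function of these cells. Of the genes printed, Acta2 is in the rule. Of the 28 genes on the contractile list, 23 matched an entry of the RefSeq promoter table (GRCm38.p6, the build of the files), with 28 transcript starts between them. The 250 bases before each start were searched for the CArG box on both strands, which read alike for this palindromic element. An exact match was found in 3 of these 28 windows, those of Myl6, Myl9 and Srf itself, against 482 of all 32851 windows in the table (1.47%). With 1 C or G allowed in the A/T run, 5 windows matched, against 2823 of all (8.59%), and Acta2 and Synm were added. The matches are printed with the flanking bases, 30 bases each, the element in capitals, 5′ to 3′ on the strand of the gene:
Acta2, chr19:34255438-34255467, minus strand, 84 bases before the start, 1 C allowed: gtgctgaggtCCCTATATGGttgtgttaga
Acta2, chr19:34255388-34255417, minus strand, 34 bases before the start, 1 G allowed: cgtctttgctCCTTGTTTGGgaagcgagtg
Myl6, chr10:128493040-128493069, minus strand, 50 bases before the start, exact: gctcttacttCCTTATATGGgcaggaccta
Myl9, chr2:156775293-156775322, plus strand, 161 bases before the start, exact: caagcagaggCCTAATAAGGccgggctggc
Myl9, chr2:156775355-156775384, plus strand, 99 bases before the start, 1 G allowed: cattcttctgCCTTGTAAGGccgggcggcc
Synm, chr7:67759962-67759991, minus strand, 239 bases before the start, 1 C allowed: caacggggagCCTCATAAGGtgtcccagat
Srf, chr17:46556225-46556254, minus strand, 82 bases before the start, exact: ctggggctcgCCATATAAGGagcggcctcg
Srf, chr17:46556205-46556234, minus strand, 62 bases before the start, exact: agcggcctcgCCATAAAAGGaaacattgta
Tagln, Myh11 and Actg2 were named only, without an entry in the table. The start used for Acta2 lies inside the gene span given below, so it is not the outermost start of that gene. With 1 C or G allowed, the list of ion channels and calcium handling had a match in 3 of 13 windows (23.1%). The list of receptors and signalling of vessel tone had one in 1 of 31 (3.23%). Matches were thus not particular to the contractile list. A match describes letters in a window and not a bound site.

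The members did not form a single population, and part of them went against the label. Clustering on values centred within each library gave 6 clusters, and each was checked against marker lists for mural cells and for the other cells of skin. Centring takes out only the mean difference of each gene. Con and TP barcodes of a cluster can thus still differ in kind, as in cluster 3 below. In clusters 1, 2, 4 and 6 the 13 vascular smooth muscle markers took 1.18% to 6.15% of all UMIs, and in clusters 3 and 5 only 0.214% and 0.110%. Clusters 1, 2, 4 and 6, called the smooth muscle marker clusters here, held 127 of the 179 members (70.9%), 37 from Con and 90 from TP. The limit of 1% behind this choice was set after the values were seen. The 13 markers include Acta2, Myh11 and Cnn1 of the rule, and also Tagln, Myl9, Mylk, Lmod1, Pln and Mcam. Their levels in these clusters are thus part of the choice, and the split is not independent of the rule.

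Cluster 1, with 16 Con and 32 TP barcodes, was smooth muscle-like by its markers. Its leading genes over the other members included Mgp, Pgam2, Actg2, Cnn1, Hspb7, Tagln and Hspb6, and Actg2 is a marker of the arrector pili and visceral muscle as well. Itga8, also on the arrector pili list, had a UMI in 14 Con and 29 TP barcodes of cluster 1, with medians of 473 and 659 CPM. Vascular and arrector pili muscle were therefore not told apart in this cluster. Cluster 2, with 9 and 26 barcodes, was led by genes that included Tbx3os1, Mamdc2, Olfr78 and Tbx2. It carried Rgs5, a regulator of G-protein signalling typical of pericytes, at 861 CPM and Notch3 at 1404 CPM together with Myh11 at 9245 CPM, so that markers of both mural kinds stood in it and it was left unnamed. Cluster 4, with 10 and 16 barcodes, was led by Rbfox1, Fgf14, Sostdc1, Pde10a and Bmp6. These genes had a UMI in only 5, 12, 6, 6 and 8 of the 26 barcodes. The cluster held Itga8, an integrin of the arrector pili, at 937 CPM and the adrenergic receptor gene Adra1a at 335 CPM, while Rgs5 was at 6.3 CPM. The vascular smooth muscle list stood at 22409 CPM, the arrector pili list at 1759 CPM and the dermal papilla list at 2031 CPM, the last at 25.9 CPM in Con and 2680 CPM in TP. The dermal sheath list stood at 544 CPM in Con and 1440 CPM in TP. Chrm2, another arrector pili marker of the list, had no UMI in clusters 1, 2, 4 and 6, and cluster 4 was left unnamed.

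Cluster 6, with 2 Con and 16 TP barcodes, held Rgs5 at 2377 CPM, Abcc9 at 711 CPM and Kcnj8, which with Abcc9 forms an ATP-sensitive potassium channel, at 93.2 CPM. Its Notch3 level, 955 CPM, was below that of cluster 2, and Cspg4, another pericyte marker, had no UMI. The whole list of 13 pericyte markers stood at 5196 CPM in cluster 6 and 4707 CPM in cluster 2. That list holds Rgs5, Kcnj8, Abcc9, Notch3 and Des of the rule, so its total is in large part a description. The leading gene of cluster 6 was Csmd1, at 4054 CPM against 6.3 to 22.4 CPM in clusters 1, 2 and 4. The endothelial list stood at 524 CPM and the myeloid list at 466 CPM in the same barcodes, and 10 of the 16 TP barcodes were called doublets, meaning that they lay nearest to artificial mixtures of 2 barcodes. Cluster 6 was therefore left unnamed, and with 2 Con barcodes it was given no comparison of its own.

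Cluster 3, with 11 and 15 barcodes, was led by Ctla2a, Lum, Cpz, Gfpt2, Col1a1 and Col1a2, genes of dermal fibroblasts, and these came from TP barcodes. Col1a1 and Col1a2, both chains of type I collagen, were at 19310 and 24865 CPM in its TP barcodes and at 0 and 75.7 CPM in its Con barcodes, in which the inner root sheath list stood at 4997 CPM. The TP values were carried by some of the 15 barcodes, as Col1a1 ranged from 0 to 1436 UMIs per barcode and the summed fibroblast markers had a median of 798 CPM and a maximum of 106141 CPM. Cluster 3 was therefore left unnamed. Cluster 5, with 6 and 20 barcodes, was keratinocyte-like, with Krt10, the keratin of differentiating epidermis, at 17307 CPM. Both passed the rule with few transcripts of the muscle genes, as Myh11 was at 161 CPM in cluster 3 and 297 CPM in cluster 5, against 1980 to 14786 CPM in the smooth muscle marker clusters. The gene sums over all members therefore mix these barcodes with muscle, and the comparisons of genes below were made within the smooth muscle marker clusters.

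**Figure D1:**
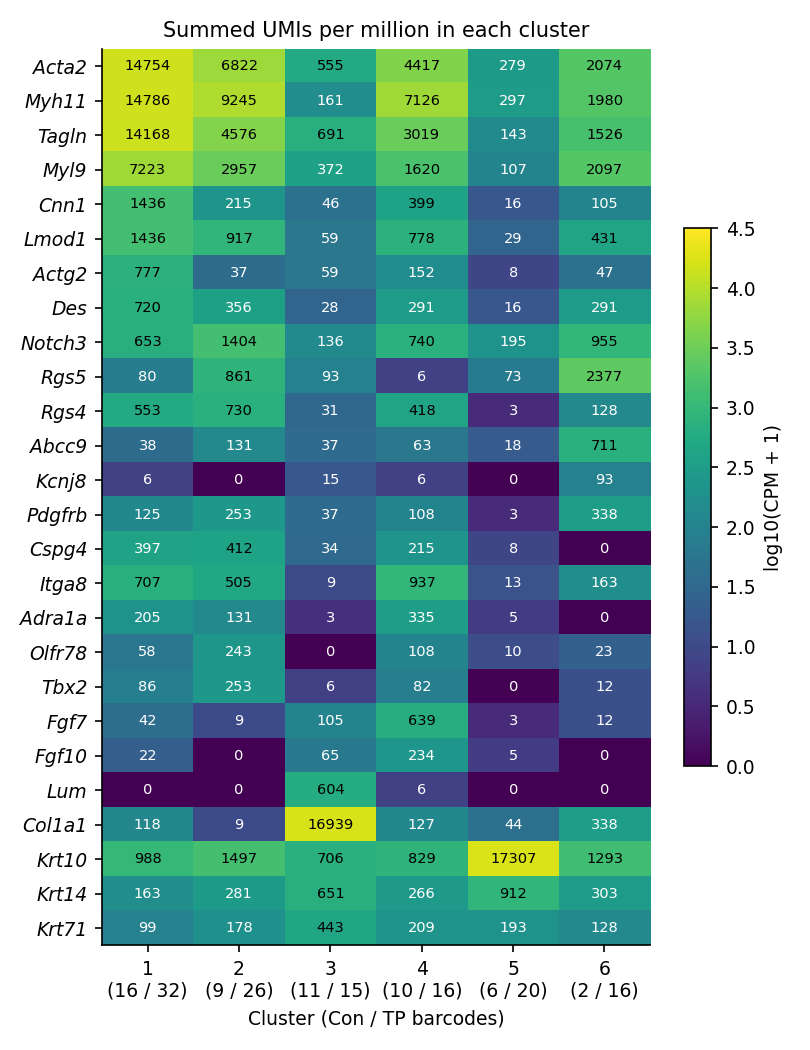
Summed CPM (numbers in the cells, coloured on a log10 scale) of rule genes and of markers of muscle, pericytes, fibroblasts and keratinocytes in the 6 clusters of members, both libraries together. Muscle genes are high in clusters 1, 2 and 4, Rgs5 and Abcc9 are highest in cluster 6, and clusters 3 and 5 stand apart with collagen and keratin transcripts.

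The values that chose the members can be set beside those of barcodes just outside the rule. Tagln, which encodes the actin-binding protein transgelin and is not in the rule, was at 3171 CPM in Con and 2278 CPM in TP among the 38 and 64 members with exactly 2 of the 6 genes. Among members with 3 or more it was at 3307 CPM and 7933 CPM. Among the 277 and 476 barcodes with 1 of the 6 genes it was at 133 CPM and 27.1 CPM. A further 11 Con and 7 TP barcodes were left out for a UMI of Cdh5 or Pecam1.

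The members took 0.128% (0.0960 to 0.167) of barcodes in Con and 0.624% (0.519 to 0.743) in TP, a ratio of 4.88 (3.52 to 6.84). Inner root sheath barcodes met the same rule at 0.156% (7 of 4491, 0.0627 to 0.321) in Con and 0.571% (5 of 876, 0.186 to 1.33) in TP. The intervals of members and inner root sheath barcodes overlap in each library, the latter resting on 7 and 5 barcodes. Tagln, which is not in the rule, had a UMI in 58.0% of Con and 60.2% of TP members thinned to 1000 UMIs, against 0.649% and 0.685% of inner root sheath barcodes. Inner root sheath barcodes had a median of 3611 UMIs in Con and 10482.5 in TP. They held Notch3, a gene of the rule, at 147 and 134 CPM, so this type did not lack every gene of the rule. The smooth muscle marker clusters took 0.0876% (0.0617 to 0.121) of barcodes in Con and 0.449% (0.361 to 0.552) in TP, a ratio of 5.13 (3.46 to 7.73). Of 4491 inner root sheath barcodes in Con, 1 fell in them (0.0223%, 0.000564 to 0.124). In TP 0 of 876 did, with a floor of 0.342% at 3 barcodes and an exact binomial upper limit of 0.420%. These intervals overlap those of the smooth muscle marker clusters in both libraries, so a share above the background was not shown at these numbers. They would overlap even at 0 barcodes, where the upper limits are 0.0821% for 4491 and 0.420% for 876. These lie above the clusters' lower limits of 0.0617% and 0.361%, so the overlap cannot decide the question.

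Doublet calls moved with this difference. Among the smooth muscle marker clusters 0 of 37 Con barcodes and 36 of 90 TP barcodes were among the 7.5% of their library nearest to artificial doublets. Cluster 1 held 18 of these 36 among its 32 TP barcodes, and 0 among its 16 Con barcodes. Those 36 had a median of 6729 UMIs and the other 54 a median of 3934.5. Without them the shares were 0.0947% and 0.291%, a ratio of 3.08 (1.99 to 4.81). When every barcode was first thinned to 1000 UMIs the members numbered 23 and 55, with a ratio of 4.60 (2.78 to 7.85). With at least 3 of the 6 genes required they numbered 16 and 61, with a ratio of 8.03 (4.57 to 14.9). The TP share was above the Con share in each of these versions, with ratios from 3.08 to 8.03. The barcodes over the mitochondrial limit were not counted in these shares, and of those within the limits on genes 1 of 3465 in Con and 10 of 5844 in TP met the rest of the rule. Other dermal types, chosen by their own markers, also took a larger share of the TP library. Endothelial barcodes were 80 of 42244 in Con and 134 of 20045 in TP. Dermal sheath barcodes were 44 and 70, and dermal fibroblast barcodes 113 and 624. A higher share in TP was thus not particular to the members. A share of barcodes reflects how well a cell type leaves the tissue and passes Percoll as well as its number in the skin, and these cannot be told apart here.

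**Figure D2:**
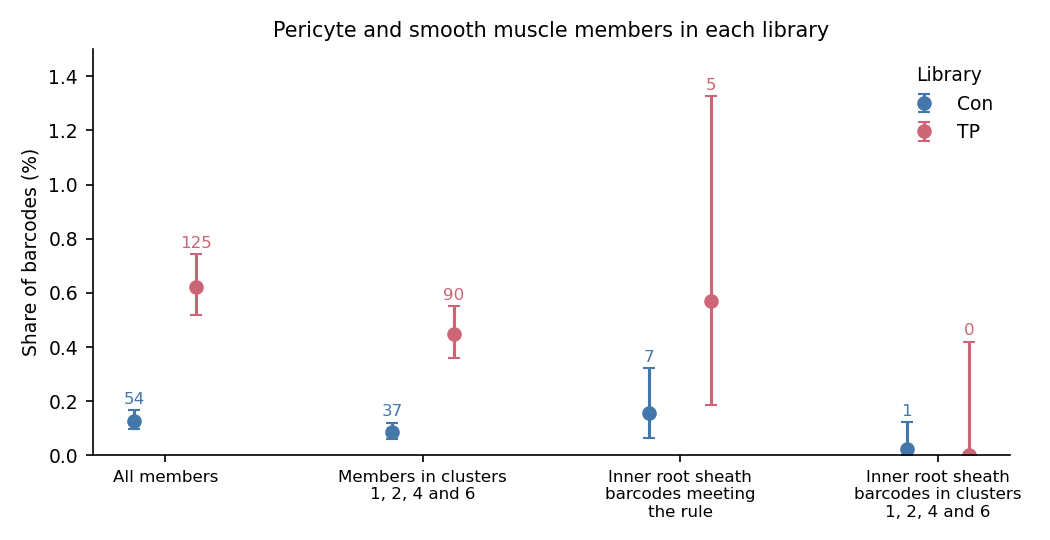
Share of barcodes within the limits, in percent with exact binomial 95% intervals, for all members, members in clusters 1, 2, 4 and 6, and inner root sheath barcodes that met the rule or fell in those clusters, in Con and TP. Numbers above the points are barcodes. The smooth muscle marker clusters sit at 0.0876% and 0.449%, and their intervals, like those of all members, overlap the inner root sheath values in each library.

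Gene by gene, a gene was called higher or lower when its CPM differed at least 2-fold between TP and Con, with 1 UMI added in each library. Genes that reached 50 UMIs when both libraries were summed were examined. These calls are sizes and not tests. In the smooth muscle marker clusters TP held 536439 UMIs and Con 126882, so a gene with 4 or fewer UMIs in Con reached 50 only through TP and was then bound to be called higher. Over all members 326 of 5157 genes were higher (6.32%) and 166 lower (3.22%), 9.54% in all. In the smooth muscle marker clusters 143 of 2665 genes were higher (5.37%) and 60 lower (2.25%), 7.62% in all, with a median log2 ratio over all genes of 0.0057. Scaling by trimmed means (TMM) in place of totals raised the median log2 ratio in these clusters by 0.11 and gave 178 higher and 35 lower. Over all members it raised the median by 0.15 and gave 408 higher and 87 lower, and mean fractions per barcode gave 363 and 352. Among the other cell types whose markers were checked in these clusters, the 6 myeloid markers were all at 0 in Con and summed to 85.8 CPM in TP, the 7 endothelial markers to 23.6 and 103 CPM, and the 6 dermal papilla markers to 63.1 and 656 CPM. The inner root sheath markers went the other way, at 1687 and 311 CPM. The part of these transcripts in the calls was not tested.

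In the contractile apparatus 27 of 28 genes reached 50 UMIs, 2 were called higher and 0 lower, against 5.37% and 2.25% of all genes. One of the 2, Des, is a gene of the rule. Log2 ratios were above 0 for 20 of the 27, with a median of 0.19, or −0.044 without doublet calls. Cnn1, calponin and also a gene of the rule, was at 599 and 872 CPM (1.46, 1.14 to 1.88), short of 2-fold, and at 461 CPM in TP without doublet calls. Myh11, the smooth muscle myosin heavy chain (chromosome 16, 14194527 to 14292188), was at 10498 CPM in Con and 10391 CPM in TP, a ratio of 0.990 (0.932 to 1.05). Acta2, smooth muscle actin (chromosome 19, 34240336 to 34255585), was at 8315 and 9623 CPM (1.16, 1.08 to 1.24). Without doublet calls the TP levels were 8435 CPM for Myh11 and 7628 CPM for Acta2, below Con, whereas in cluster 1 both were above it, at 11547 and 15647 CPM for Myh11. The cluster 1 values keep its doublet calls, 18 of 32 TP barcodes. Both genes are in the rule, so their levels describe the members. Cald1, which encodes the actin-binding caldesmon, had a ratio of 0.983 and Tpm1, a tropomyosin, one of 1.02.

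Tagln (chromosome 9, 45929628 to 45936058) was at 5541 CPM in Con and 8991 CPM in TP, a ratio of 1.62 (1.499 to 1.76). The barcodes ranged from 0 to 18418 CPM with a median of 4082 in Con, and from 0 to 28132 CPM with a median of 4370 in TP, so the ranges overlapped and the highest TP barcodes lay above the highest Con barcode. Within cluster 1 the medians were 7434 and 15505 CPM. Without doublet calls the TP level was 6399 CPM, and within cluster 1 it was 15618 CPM against 8713 CPM in Con. Of the barcodes of cluster 1, 18 of 32 in TP and 0 of 16 in Con were doublet calls, kept in these values. Myl9, the regulatory myosin light chain whose phosphorylation starts contraction, was at 3476 and 4789 CPM (1.38, 1.24 to 1.53). At a common depth of 1000 UMIs, which left out 1 Con and 2 TP barcodes, Tagln had a UMI in 77.8% (60.8 to 89.9) of 36 Con barcodes and 80.7% (70.9 to 88.3) of 88 TP barcodes. Before thinning these shares were 81.1% and 86.7%. Inner root sheath barcodes at the same depth had one in 0.649% and 0.685%. Tagln and Myl9 are among the markers that chose these clusters, so this contrast is in part set by that choice.

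**Figure D3:**
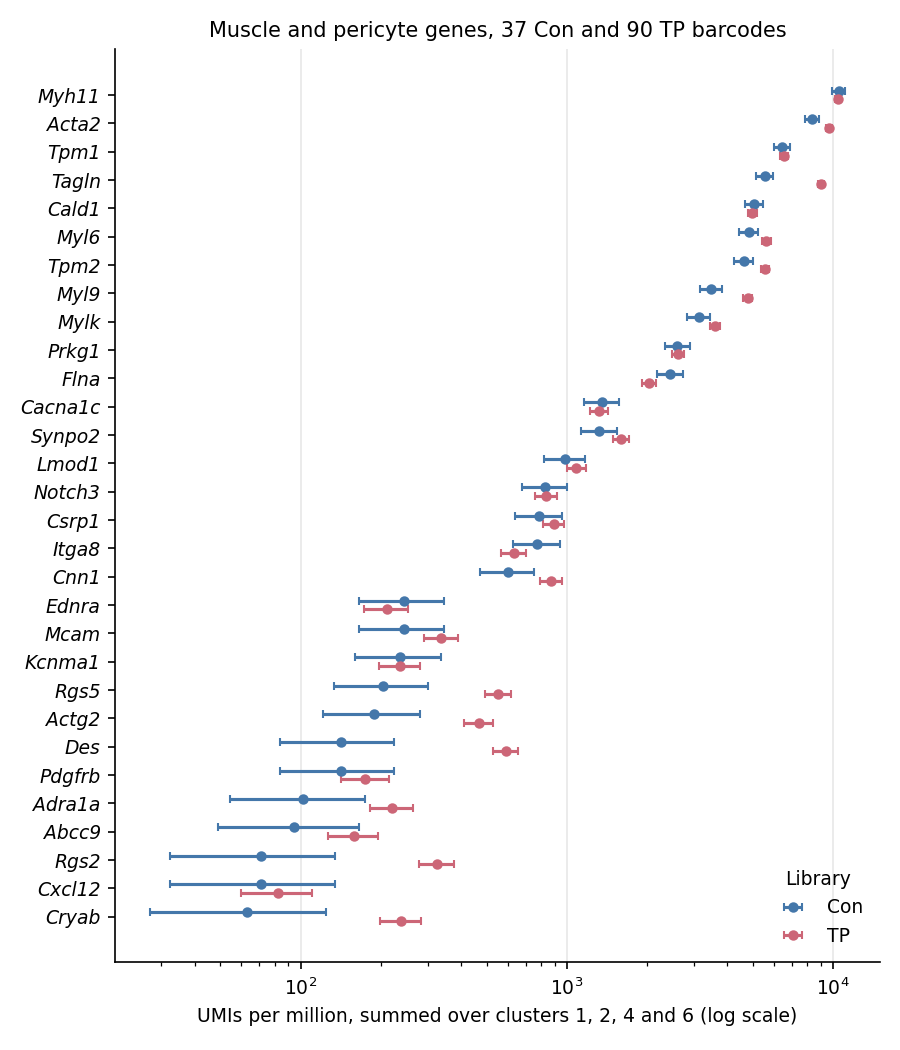
Levels of muscle and pericyte genes in CPM (log axis), summed over the 37 Con and 90 TP barcodes of clusters 1, 2, 4 and 6, with exact Poisson 95% intervals. Myh11, Cald1, Prkg1, Cacna1c and Notch3 coincide between the libraries, whereas Rgs2 and Cryab are higher in TP with separate intervals. Des, Notch3, Myh11 and the other genes of the rule are shown as a description.

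Des, the intermediate filament desmin of muscle (chromosome 1, 75360292 to 75368579), was 1 of the 2 contractile genes called higher, and it is a gene of the rule. It had 18 UMIs in 12 of 37 Con barcodes (142 CPM) and 316 UMIs in 56 of 90 TP barcodes (589 CPM), a ratio of 4.15 (2.58 to 7.10). A single TP barcode held 29.7% of the TP UMIs. Since Des chose the members, these values are a description. Without doublet calls the TP level was 415 CPM. In cluster 1, doublet calls kept, the levels were 168 and 867 CPM, and a single TP barcode held 43.9% of the TP UMIs there. Actg2, the gamma actin of visceral and arrector pili muscle (chromosome 6, 83512909 to 83536251), was at 189 and 468 CPM (2.47, 1.62 to 3.93). Without doublet calls it was at 209 CPM in TP, near the Con level, and the call was lost.

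Among receptors and signalling genes of vessel tone, the regulators of G-protein signalling Rgs2 and Rgs5 and the receptor gene Adra1a were called higher. These were 3 of 12 measured genes of the 28 listed, with 0 lower, against 5.37% and 2.25% of all genes, and the median log2 ratio was 0.15. Without doublet calls 11 were measured, 3 higher and 1 lower, against 59 and 33 of 1484 genes. Rgs5 is a gene of the rule, so its call is a description. Rgs2 (chromosome 1, 143999338 to 144004149) shortens signals of vasoconstrictor receptors by acting on Gq. It had 9 UMIs in 8 Con barcodes and 175 UMIs in 42 TP barcodes, which is 70.9 and 326 CPM, a ratio of 4.60 (2.37 to 10.2). Without doublet calls the TP level was 331 CPM, within cluster 1 the levels were 76.2 and 449 CPM, and the call stood in 8 of 8 alternatives. In the rest of the libraries the log2 ratio of Rgs2 was 0.054, so the difference was not seen across the skin as a whole. Adra1a, the alpha-1A adrenergic receptor through which sympathetic nerves contract smooth muscle, was at 102 and 220 CPM (2.15, 1.21 to 4.15) and at 327 CPM in TP without doublet calls. Its call was lost in 1 of 7 alternatives. In the rest of the libraries Adra1a was also higher in TP, at 0.175 and 0.651 CPM.

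Rgs5 (chromosome 1, 169655501 to 169695813), a gene of the rule, was at 205 CPM in Con and 552 CPM in TP, a ratio of 2.69 (1.80 to 4.19). Without cluster 6 the levels were 136 and 223 CPM with a ratio of 1.63 (0.972 to 2.92). Within single clusters Rgs5 was at 107 and 72.9 CPM in cluster 1, from 7 and 18 UMIs, and at 442 and 959 CPM in cluster 2, from 9 and 83 UMIs. Cluster 6 held 9 UMIs in 2 Con barcodes and 195 UMIs in 16 TP barcodes, and was not compared. With so few Con UMIs of a gene that chose the members, no direction is given for single clusters. Rgs4, another member of this family, was at 528 and 487 CPM (0.921, 0.702 to 1.22). Prkg1, the cyclic GMP-dependent kinase that relaxes vessels, was at 2601 and 2617 CPM. Ednra, the endothelin receptor of smooth muscle, was at 244 and 211 CPM (0.862, 0.575 to 1.33). For these 3 genes the intervals or values leave no difference visible at this depth.

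Ion channels and calcium handling held 12 measured genes of 18, with 0 called higher and 0 lower and a median log2 ratio of −0.039, which becomes 0.070 under TMM. Cacna1c, the L-type calcium channel, was at 1356 and 1322 CPM. Itpr1, which releases calcium from internal stores, was at 709 and 656 CPM, and Atp2a2, the pump that refills them, was at 575 and 697 CPM. Abcc9 was at 94.6 and 158 CPM, and its partner Kcnj8 had 3 UMIs in Con and 8 in TP. Pln, the inhibitor of that pump, was at 465 and 405 CPM (0.870, 0.650 to 1.18). Ano1, a calcium-activated chloride channel that depolarizes smooth muscle, was at 126 and 224 CPM (1.77, 1.05 to 3.20). Trpc6, a receptor-operated cation channel, had 8 and 75 UMIs and a ratio of 2.22 (1.07 to 5.32) that fell short of the call once 1 UMI was added.

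The Notch and PDGF pathways, through which endothelium maintains mural cells, gave 1 call between them. Of 15 Notch genes 7 were measured, 0 were higher and 1 was lower, against 5.37% and 2.25% of all genes, with a median log2 ratio of −0.44, or −0.050 over the 3 genes still measured without doublet calls. Notch3, the mural receptor and a gene of the rule, was level at 828 and 835 CPM. Notch1, the receptor of endothelium and keratinocytes, was at 158 and 61.5 CPM (0.390), and in the rest of the libraries it was also lower, at 301 and 127 CPM. Jag1, a ligand, was at 284 and 162 CPM (0.572, 0.383 to 0.868), and at 195 and 97.6 CPM in the rest. Of 18 genes of PDGF, VEGF and angiopoietin signalling 10 were measured and 0 were called in either direction, with a median log2 ratio of 0.19. Pdgfrb was at 142 and 175 CPM (1.24, 0.741 to 2.17). Mcam, an adhesion receptor of mural cells, was at 244 and 337 CPM, and Angpt1, the mural ligand of endothelial Tek, at 142 and 170 CPM (1.20, 0.716 to 2.11).

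Basement membrane genes were near level, with 9 of 16 measured, 0 called either way and a median log2 ratio of 0.043, or −0.14 without doublet calls. Col4a1, a chain of the type IV collagen that forms the sheet around mural cells, was at 977 and 1022 CPM, and Col4a2 was at 820 and 774 CPM (0.944, 0.760 to 1.18). Sparc, a collagen-binding matrix protein, was at 1828 and 2103 CPM (1.15, 0.998 to 1.33), whereas it was at 301 and 1209 CPM in the rest of the libraries. In the interstitial matrix list 12 of 26 genes were measured, 3 higher and 0 lower, against 5.37% and 2.25% of all genes, with a median log2 ratio of 0.42. Without doublet calls 9 were measured, 0 were called and the median was 0.18.

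The 3 were Col3a1 and the type VI collagen chains Col6a1 and Col6a2, which form fine filaments next to the basement membrane. Col3a1, the collagen of extensible tissues, was at 213 and 513 CPM (2.41, 1.62 to 3.72), at 283 CPM in TP without cluster 6, and at 188 and 913 CPM in the rest of the libraries. Col6a1 had 1 UMI in Con and 67 UMIs over 29 barcodes in TP, a ratio of 15.8 (2.75 to 635), and a log2 ratio of 1.79 in the rest. Col6a2 was at 31.5 and 121 CPM (3.84, 1.43 to 14.5), with 4 UMIs in Con. Both type VI chains reached 50 UMIs through TP. Without doublet calls Col6a1 had 1 and 30 UMIs and Col6a2 4 and 28, too few for a call. Col1a1, by contrast, was at 118 and 134 CPM (1.14, 0.645 to 2.13) in these clusters, while it was at 124 and 1094 CPM in the rest of the libraries.

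In the list of integrins and adhesion molecules, 10 of 17 genes were measured, 2 were higher and 1 was lower, against 5.37% and 2.25% of all genes, with a median log2 ratio of 0.18. Itga8 was at 772 and 632 CPM (0.818, 0.652 to 1.04) and Itgb1, the beta chain it pairs with, at 1017 and 1284 CPM (1.26, 1.05 to 1.54). Cdh13, a cadherin of vessel walls, was at 118 and 257 CPM. Its call was kept in 4 of 7 alternatives. Ncam1, a neural and muscle adhesion molecule, had 1 UMI in Con and 50 in TP over 12 barcodes, a ratio of 11.8 (2.03 to 476), and so was measured only through TP, while in the rest of the libraries it was lower in TP, at 122 and 59.3 CPM.

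Of the TGF-β and BMP genes 13 of 24 were measured, 2 were higher and 1 lower, against 5.37% and 2.25% of all genes, with a median log2 ratio of 0.042. With clusters weighted by Con UMIs 0 were higher and 1 lower. The lower one was Ccn2 (chromosome 10, 24595442 to 24598683), which encodes connective tissue growth factor, a matrix-inducing target of TGF-β and YAP signalling. It had 80 UMIs in 20 of 37 Con barcodes and 138 UMIs in 28 of 90 TP barcodes, which is 631 and 257 CPM, a ratio of 0.408 (0.308 to 0.544). Without doublet calls the TP level was 114 CPM, and the call stood in 7 of 8 alternatives and was lost in cluster 1 alone, at 701 and 462 CPM. In the rest of the libraries Ccn2 was at 5.46 and 8.99 CPM, higher in TP. Its relative Ccn1 was at 260 and 248 CPM (0.953, 0.647 to 1.44). Serpine2, a protease inhibitor, was at 284 and 621 CPM (2.19, 1.55 to 3.18) and kept its call in 4 of 8 alternatives. Id4, an inhibitor of basic helix-loop-helix factors, had 5 and 66 UMIs.

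**Figure D4:**
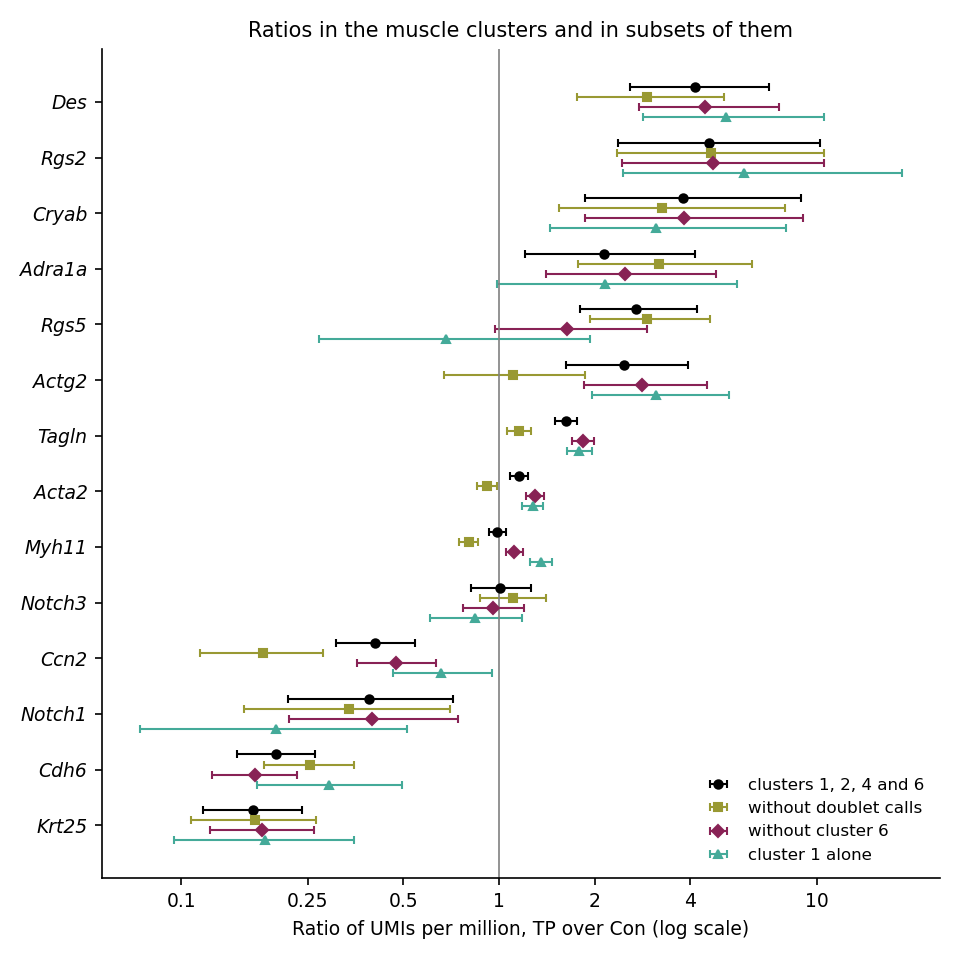
Ratio of CPM, TP over Con (log axis), for genes named in the text in clusters 1, 2, 4 and 6 and in subsets of them, without doublet calls, without cluster 6 and in cluster 1 alone, with exact 95% intervals for counting error. Rgs2 and Cryab stay above 1 in each subset, Cdh6 and Krt25 stay below 1, and Actg2 moves towards 1 without doublet calls. Genes of the rule, such as Des and Rgs5, are a description. Cluster 1 alone keeps its doublet calls, 18 of 32 TP barcodes and 0 of 16 Con barcodes.

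The CXCL12 axis, on which the study centred, was sparse in these cells. Cxcl12, the chemokine itself, had 9 UMIs in 8 Con barcodes and 44 UMIs in 20 TP barcodes, which is 70.9 and 82.0 CPM, a ratio of 1.16 (0.557 to 2.69). With clusters weighted by their Con UMIs the direction turned, to a log2 ratio of −0.83, so no direction is given. Endothelial barcodes held 839 and 457 CPM and dermal fibroblast barcodes 237 and 220 CPM. At 1000 UMIs per barcode Cxcl12 had a UMI in 11.1% (3.11 to 26.1) of Con and 9.09% (4.01 to 17.1) of TP barcodes, against 0.157% and 0.457% of inner root sheath barcodes. Its receptor Cxcr4 had no UMI in these clusters in either library, and Ackr3, the other receptor, had 4 and 20.

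Few of the inflammatory genes were measured. Of 22 chemokines and inflammatory genes only 6 were measured, 5 were called higher and 0 lower, against 5.37% and 2.25% of all genes, with a median log2 ratio of 1.58. The 5 had 1 to 4 UMIs in Con and were measured only through TP, so the count and the median are set by the minimum of 50 UMIs. Without doublet calls 1 gene was measured, and it was not called, at a log2 ratio of 0.51. For Cxcl1 and Ccl8, both chemokines, 1 TP barcode held 84.8% and 93.4% of the TP UMIs. Nfkbia, the inhibitor of NF-κB, was at 31.5 and 96.9 CPM with 4 UMIs in Con, and at 115 and 242 CPM in the rest of the libraries. Il34, a ligand of the macrophage receptor Csf1r, had 3 and 50 UMIs over 3 and 24 barcodes, a ratio of 3.94 (1.27 to 19.8). Of 14 interferon-stimulated genes 1 was measured, and it was not called.

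The immediate-early genes, which rise within minutes of stress or dissociation, had 16 of 21 measured, with 0 higher and 1 lower, against 5.37% and 2.25% of all genes, and a median log2 ratio of 0.19. Over all members 8 of 18 were higher and 0 lower, against 6.32% and 3.22% of all genes there, with a median log2 ratio of 0.97. Within the smooth muscle marker clusters Fos was at 2152 and 1972 CPM (0.917, 0.802 to 1.05) and Jun at 1174 and 1036 CPM (0.883, 0.735 to 1.06), while in the rest of the libraries Fos was at 665 and 2018 CPM. Klf2, a flow-responsive factor, was the 1 lower at 150 and 72.7 CPM, and a single Con barcode held 47.4% of its Con UMIs. Its call was kept in only 1 of 5 alternatives. Heat shock genes had 13 of 14 measured, 1 higher and 0 lower, near the 5.37% and 2.25% of all genes. The 1 was Cryab, the small heat shock protein that binds desmin filaments (chromosome 9, 50745951 to 50756636). It had 8 UMIs in 7 Con barcodes and 128 UMIs in 49 TP barcodes, which is 63.1 and 239 CPM, a ratio of 3.78 (1.86 to 8.95). It was at 206 CPM in TP without doublet calls and stayed called in 8 of 8 alternatives. In the rest of the libraries it was also higher in TP, at 2.26 and 5.53 CPM. Hspb1, which has a like role, was at 843 and 969 CPM (1.15, 0.932 to 1.43).

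Among glycolysis and hypoxia genes 9 of 18 were measured, 2 higher and 0 lower, against 5.37% and 2.25% of all genes, with a median log2 ratio of 0.51. Ldha, which turns pyruvate into lactate, was at 78.8 and 188 CPM (2.39, 1.25 to 5.13), and Pkm, which makes pyruvate, at 150 and 321 CPM (2.14, 1.33 to 3.64). Aldoa, which acts earlier in glycolysis, was at 221 and 447 CPM (2.03, 1.37 to 3.12). Without doublet calls Ldha was at 156 CPM and Pkm at 266 CPM in TP, and neither was called. In the rest of the libraries each of the 3 was also higher in TP, Ldha at 163 and 243 CPM, Pkm at 135 and 196 CPM, and Aldoa at 136 and 263 CPM.

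Genes that respond to steroids had 6 of 13 measured, 0 higher and 1 lower, against 5.37% and 2.25% of all genes, with a median log2 ratio of 0.099. The 1 lower was the metallothionein Mt2 at 142 and 72.7 CPM (0.512, 0.286 to 0.952), a call kept in only 1 of 4 alternatives. Without doublet calls 4 genes of the list were measured, 1 higher and 0 lower, against 59 and 33 of 1484 genes. Zbtb16, a factor induced by glucocorticoid and androgen, was at 118 and 229 CPM (1.94, 1.13 to 3.57) and short of the call, and at 31.4 and 136 CPM in the rest of the libraries. Of 16 cell cycle genes 4 were measured, 0 were higher and 3 lower, against 5.37% and 2.25% of all genes, with a median log2 ratio of −1.01. Under TMM the median was −0.90 and with clusters weighted by Con UMIs −0.62, and 0 were called lower in either. These were Top2a, Hmgb2 and Stmn1, at 166, 284 and 213 CPM in Con and 83.9, 142 and 108 CPM in TP. A single TP barcode held 46.7% of the TP UMIs of Top2a, and each was lower in TP in the rest of the libraries as well.

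By the size of the ratio alone, the genes furthest above Con in these clusters included Csmd1, Gadd45g, Fgf7, Mfap3l, Adgrf5, Ifitm1, Ccl8, Hecw2 and Col6a1. Each of these had 0 or 1 UMI in Con, reached 50 UMIs only through TP and was bound to be called higher. Their folds and limits are therefore a description of genes picked in this way. Csmd1, with 1 and 356 UMIs, came from cluster 6. Fgf7, a growth factor of the dermal papilla, had 1 and 115 UMIs with 52.2% in a single barcode. Gadd45g, a stress-induced growth arrest gene, was more widely spread, with 0 UMIs in Con and 77 over 30 TP barcodes. It was 6.07-fold higher against a floor of 3 UMIs in Con, with an exact lower limit of 4.82 for the ratio. In the rest of the libraries Gadd45g was at 44.6 and 63.6 CPM. Mfap3l, Adgrf5 and Ifitm1, all at 0 in Con, were 4.34-fold, 4.10-fold and 4.02-fold higher against the same floor, with lower limits of 3.41, 3.22 and 3.15. Of the 52 TP UMIs of Adgrf5, 50 came from cluster 6, as did 34 of the 51 of Ifitm1 and 14 of the 55 of Mfap3l.

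The 10 furthest below Con were Krt25, Krt71, Cdh6, Tchh, Fabp5, Gja1, Ppfibp2, Slc39a10, Cux1 and Mgat5. Krt25, Krt71 and Tchh make the inner root sheath, and they moved with the libraries: Krt25 was at 623 and 104 CPM in the smooth muscle marker clusters and at 1489 and 510 CPM in the rest. Cdh6, a cadherin also made by the follicle, was at 898 and 179 CPM here and 1013 and 173 CPM in the rest. Fabp5, a keratinocyte fatty acid-binding protein, was at 764 and 170 CPM here and 1949 and 1354 CPM in the rest. Ppfibp2, a liprin of cell contacts, was at 205 and 59.7 CPM and differed little in the rest, at 112 and 106 CPM.

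**Figure D5:**
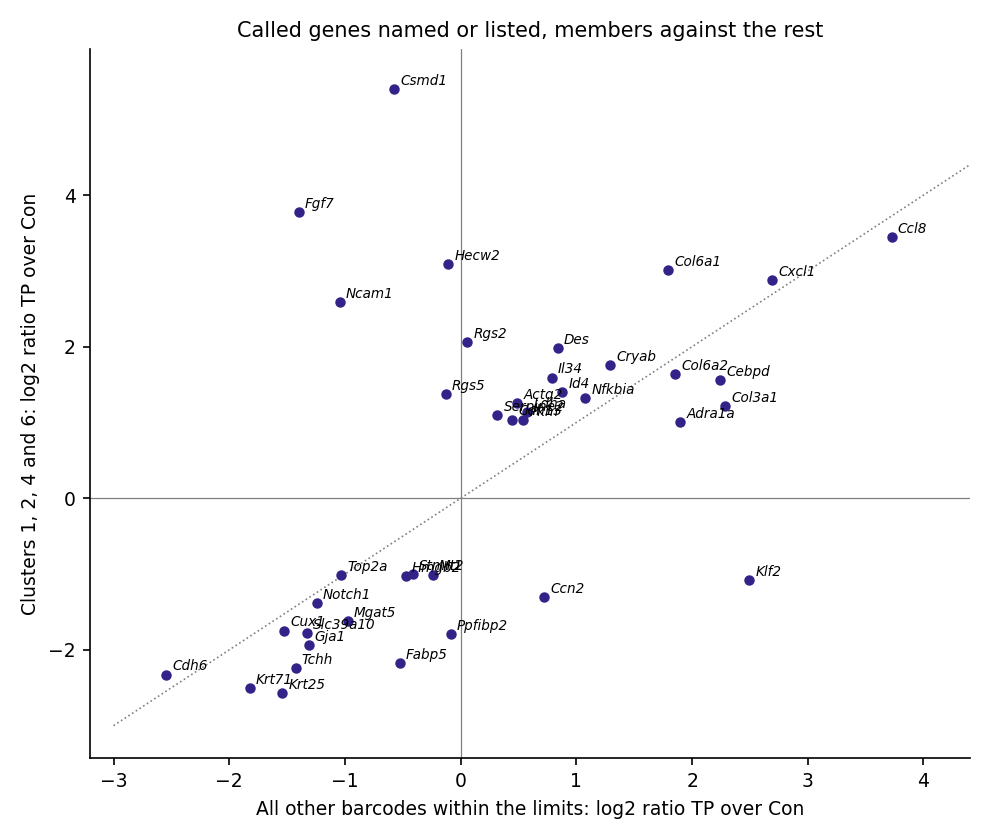
Log2 ratio of TP to Con in clusters 1, 2, 4 and 6 (vertical axis) against the same ratio in all other barcodes within the limits (horizontal axis), for genes called in those clusters that are on a list or among the named genes and had a UMI in Con, with a dotted line of equal ratios. Krt25, Cdh6 and Notch1 are lower in both sets, and Rgs2 is higher in the smooth muscle marker clusters and level in the rest. Ncam1 is lower in the rest, and its place above 0 in these clusters rests on 1 UMI in Con. It was measured only through TP, as was each gene with 4 or fewer UMIs in Con.

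Over all members, the genes furthest above Con were largely those of the TP barcodes of cluster 3. They were Col1a1, Col1a2, Tnfaip6, Lum, Ctla2a, Ly6c1, Csmd1, Col3a1, Dpt and Ctsk. Col1a1 was at 80.5 CPM in Con and 4844 CPM in TP, a ratio of 60.2 (38.0 to 102), whereas the smooth muscle marker clusters held 118 and 134 CPM. Col1a2 was at 112 and 6281 CPM. Lum, a collagen-binding proteoglycan of fibroblasts, had 0 UMIs in Con and 196 over 8 TP barcodes. This was 12.7-fold higher against 3 UMIs in Con, with an exact lower limit of 10.3. Lum was measured only through TP and bound to be called higher, so these values are a description. Across all members 12 of 19 measured interstitial matrix genes were called higher, with a median log2 ratio of 2.08, against 6.32% of all genes there. In the smooth muscle marker clusters it was 3 of 12, against 5.37%.

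The genes furthest below Con over all members were Cdh6, Tchh, Sema6a, Dach1, Atad2, Phactr1, Dph6, Tdg, Krt25 and Slc30a1. Cdh6 was at 1132 and 161 CPM and Tchh at 707 and 115 CPM. Phactr1, an actin regulator associated with arterial disease, was at 112 and 34.0 CPM over all members and at 166 and 59.7 CPM in the smooth muscle marker clusters (0.360, 0.202 to 0.658), in 15 Con and 24 TP barcodes. It was slightly higher in TP in the rest of the libraries, at 3.95 and 5.21 CPM.

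The smooth muscle marker clusters were set beside the dermal sheath, which shares smooth muscle actin, and beside endothelium. Sheath barcodes were chosen by a UMI of Acta2, by UMIs of sheath markers from a list with Col11a1, and by not meeting the rule. Their levels of Acta2, Col11a1 and the rule genes, Myh11 among them, are therefore a description. Dermal sheath barcodes, 44 in Con and 70 in TP, held Acta2 at 1694 and 1290 CPM and Tagln at 881 and 558 CPM, but Myh11 at only 9.0 and 4.4 CPM. Col11a1, a collagen that marks the sheath, was at 976 and 883 CPM there and at 0 and 5.59 CPM in the smooth muscle marker clusters. Pln and Lmod1, the latter a nucleator of actin filaments in smooth muscle, were at 465 and 405 CPM and at 985 and 1085 CPM in the smooth muscle marker clusters. In the sheath Pln had no UMI and Lmod1 was at 18.1 and 4.4 CPM. Tagln, Pln and Lmod1 are among the markers that chose the smooth muscle marker clusters, so their contrast with the sheath is in part set by that choice. Endothelial barcodes, 80 and 134, held Rgs5 at 110 and 54.6 CPM, Abcc9 at 91.5 and 12.5 CPM and Myh11 at 170 and 26.2 CPM. Mural transcripts thus occurred in them, and these 3 were smaller in TP by value. The smooth muscle marker clusters held Rgs5 at 205 and 552 CPM and Abcc9 at 94.6 and 158 CPM. In Con Abcc9 was therefore at a like level in both, whereas Myh11 was far lower in endothelial barcodes.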

How the data were processed

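Single-cell 3′ RNA libraries (GEM-X 3′) of pooled dorsal skin from Con and TP mice were used. The authors deposited raw UMI counts per gene and barcode, made with Cell Ranger 8.0.1 on mm10, for 32285 genes and for barcodes called as cells, with no further limits applied. Groups were taken from the labels, with 1 library each. The limits on genes and mitochondrial UMIs, the rule and the sums were computed here with Python 3.11.15, numpy 2.4.6, scipy 1.17.1 and pandas 2.3.3. Members were clustered with scanpy 1.11.5 on 2000 variable genes, centred within each library, with 15 components, 15 neighbours and Leiden (leidenalg 0.10.2) at resolution 0.6. Doublets were the 7.5% of barcodes in each library nearest to artificial doublets, a preset share, and were kept in the main values. Levels are CPM of summed UMIs, and a gene was called at 2-fold with 1 UMI added, among genes with at least 50 UMIs. TMM factors came from edgeR 4.0.16 in R 4.3.3. Figures were drawn with matplotlib 3.10.9. The script that makes the calls was tested on simulated counts with known fold changes. Coordinates and promoter windows are those of RefSeq on GRCm38.p6, the assembly of mm10. In gene counting, antisense and overlapping genes and near-identical copies may share or lose reads.

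Genes were named as members of the rule, as members of 17 lists (those with most UMIs and those past 2-fold), as the 10 largest differences in each direction without mitochondrial genes and unnamed gene models, as the 10 leading genes of each cluster, and as markers from 14 lists. Some items that this rule names are not reported here. The members, lists and markers were chosen with earlier results of these data known. Cluster 6 and the clusters above the 1% limit were set apart after the data were seen. UMIs of 1 cell are not independent molecules of a population, so intervals cover counting error only. Thinned shares rest on 1 random draw per set, which the intervals leave out. At 1000 UMIs Cxcl12 had a UMI in 4 Con barcodes of the smooth muscle marker clusters, but in 3 of all Con members in another draw. The minimum of 50 UMIs holds for calls only, and some levels given for single clusters, subsets and comparison types rest on fewer. A floor of 3 UMIs was used where Con had 0.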

Additional observations from a re-analysis of the deposited data

How the results depend on the processing

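No paired analysis was possible because each group was 1 library. The ratio of member shares was 4.88, with 3.31 without doublet calls, 8.03 with at least 3 of the 6 genes and 3.08 in the smooth muscle marker clusters without doublet calls. It was above 1 in every alternative run. The share of TP barcodes of these clusters with a UMI of Tagln was 80.7% at 1000 UMIs and 68.9% at 500. Counts of called genes moved with the genes tested and the barcodes kept, each alternative below giving higher and lower genes. Over all members, at 326 and 166, they were 939 and 4237 with no filter on low counts, which calls genes with 1 or 2 UMIs, 70 and 18 at 200 UMIs, 309 and 77 with a pseudocount of 0.1 per 10000 UMIs, 363 and 352 with mean fractions per barcode, 408 and 87 under TMM and 160 and 103 with at least 3 of the 6 genes. In the smooth muscle marker clusters, at 143 and 60, they were 839 and 4163 with no filter, 15 and 3 at 200 UMIs, 161 and 35 with that pseudocount, 152 and 97 with mean fractions, 178 and 35 under TMM, 59 and 33 without doublet calls and 81 and 52 without cluster 6, and 45 and 21 in cluster 1 alone. Fewer genes were tested in the last 3, 1484, 2231 and 1056. Of the 143 higher and 60 lower genes, 55 and 30 could still be tested without doublet calls, and 43 and 24 kept their call. Of 85 and 55 that could be tested without cluster 6, 72 and 38 kept it. Among called genes that are listed or named, 5 log2 ratios over all members changed sign. They were Actg2 without doublet calls (−0.38), Adgrf5 with clusters weighted by Con UMIs (−0.78), Dnajb1 without barcodes over 1% keratinocyte transcripts (−0.17), and Ier2 (−0.025) and Mki67 (1.28) with at least 3 of the 6 genes, and the cause was not tested. Of all 143 genes called higher in the smooth muscle marker clusters 1 had the opposite sign with mean fractions. Cxcl12, which was not called, went from 0.32 over all members to −0.24 with clusters weighted by Con UMIs. Genes under 50 UMIs in a subset were given no alternative there. With 37 Con barcodes and 126882 UMIs, 1 Con UMI is worth 7.88 CPM, so that ratios of genes with few Con UMIs are bounded only loosely.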

Other observations

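Barcodes over the mitochondrial limit that otherwise met the rule were 1 in Con and 10 in TP. The 10 held Myh11 at 6360 CPM, Acta2 at 3089 CPM and Tagln at 1937 CPM, with no UMI of the endothelial genes Kdr and Emcn, and a median of 12.7% mitochondrial UMIs. Myh11 and Acta2 are in the rule they met, and Tagln, which is not, was at 4437 CPM in the TP members. These barcodes are not part of any value above. The 11 Con and 7 TP barcodes left out for a UMI of Cdh5 or Pecam1 held Myh11 at 877 and 186 CPM and Pecam1 at 907 and 381 CPM, so that markers of vessel wall and endothelium occurred in the same barcodes.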
